A study of Mus musculus with 4 samples.

Results

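Doxorubicin damages DNA by trapping topoisomerase II on the strands it has cut, and its level inside a cell is set partly by ATP-driven pumps in the plasma membrane. The genes that encode these proteins and their relatives were read in mouse embryonic fibroblasts (MEFs) with and without Rb: the topoisomerases Top1, Top2a, Top2b and Top3a, the adduct-removing enzyme Tdp1, and the efflux transporters Abcb1a, Abcb1b, Abcc1 and Abcg2. The genes were found by their symbol in a table of 45281 probes, a rule that sets no limit on their values. All 9 had a probe, among 30872 gene names in the table. In total 14 probes carried these symbols, of which 8 were detected on all 4 arrays, 1 on 1 array and 5 on none.

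Expression was measured on 4 Illumina MouseWG-6 v2.0 BeadChip arrays, 1 per condition. No condition was measured again, so differences carry no error between cultures and were not tested. All cells were MEFs of strain FVB;129, made by the study's methods from mice with a floxed Rb gene, and the number of embryos was not given in the sources used here. Parental MEFs received a solution without TAT-Cre, a cell-permeable recombinase, and medium in place of virus. Rb-deleted MEFs received TAT-Cre in 2 treatments of 1 hr, 3 hr apart, and medium in place of virus. MEFs with WT Rb-HA or with ΔCdk Rb-HA received TAT-Cre on that schedule and a retrovirus for wild-type Rb or for Rb that Cdks cannot phosphorylate. By the paper's account all 4 cultures were contact arrested, released for 4 hr and given 100 ng/ml doxorubicin for 3 hr, which the labels do not state. No array came from cells without doxorubicin, so the response to the drug itself was not measured. The design has no array with an empty virus, so virus and Rb-HA cannot be told apart in ratios to Rb-deleted MEFs. TAT-Cre and loss of the endogenous Rb gene likewise coincide in every ratio to parental MEFs.

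Topoisomerases relieve the twisting and tangling of DNA that replication, transcription and chromosome segregation create. Type I enzymes (Top1, Top3a) cut 1 strand, and type II enzymes (Top2a, Top2b) cut both and pass another duplex through. Top2a is a proliferation gene whose level peaks in G2 and mitosis, while Top2b is also expressed in resting cells. Rb holds E2F target genes, many of them replication genes, in check during G1 phase.

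Each value below is what a 50-base probe captured, so the probes of the genes on which the results turn are shown first. Detected probes of the topoisomerases had these sequences, 5′ to 3′, with capitals marking the 18 bases that the pair of Top1 probes at transcript positions 2448 and 2480 share.
Top1 at 2448: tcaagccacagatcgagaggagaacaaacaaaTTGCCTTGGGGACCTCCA
Top1 at 2480: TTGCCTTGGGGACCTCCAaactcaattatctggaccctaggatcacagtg
Top1 at 6: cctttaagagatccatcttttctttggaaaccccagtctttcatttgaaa
Top2a at 4311: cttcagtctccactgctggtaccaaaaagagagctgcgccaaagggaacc
Top2b at 5512: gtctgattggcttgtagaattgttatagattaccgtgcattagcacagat
Top3a at 3381: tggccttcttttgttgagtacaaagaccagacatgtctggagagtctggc

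For the transporters, the detected probes of Abcb1b and Abcc1 are shown with the undetected probe of Abcb1a, because Abcb1a and Abcb1b are close paralogs. Capture of Abcb1a RNA by the Abcb1b probe was not tested, since transcript sequences were not used here.
Abcb1b at 3916: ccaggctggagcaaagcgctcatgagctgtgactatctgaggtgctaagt
Abcb1a at 4263: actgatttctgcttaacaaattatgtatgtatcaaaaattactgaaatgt
Abcc1 at 553: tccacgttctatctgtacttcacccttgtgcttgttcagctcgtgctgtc

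On every array the deposited intensity is an average over the beads of a probe, on a linear scale, and its bead standard error leaves out variation between cultures and arrays. Member probes were read from 30 to 66 beads. Detected means a detection p-value below 0.01, which on these arrays began at an intensity of 53.8 to 58.4, and 15950 to 16740 probes passed it. For ratios, intensities were corrected for background, quantile normalized and log2 transformed, with the brightest analysed probe standing for its gene. Of 12616 genes detected on at least 1 array, 7 were members. A ratio was counted if it passed 1.6-fold, 0.68 on the log2 scale, which is the filter of the paper. Depending on the pair of arrays, 33.8% to 53.3% of the genes analysed differed by more than 2 bead standard errors. Passing that mark therefore does not set a gene apart. The deleted gene Rb1 had an intensity of 543 in parental MEFs and of 160.5 to 181 on the 3 arrays labelled with TAT-Cre. Its other probe, at position 4002, was at 108 in parental MEFs and 56.7 in Rb-deleted MEFs, and was not detected on the arrays with either virus. Thus neither probe shows the Rb that the viruses carry, and whether these probes could capture it was not tested. For the protein, the paper reports physiologic levels of viral Rb by immunoblot of contact-inhibited cells. Both arrays are called by their labels. Intensities of different probes are not compared, because each probe has its own response.

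Fibroblast markers were detected on every array, 9 of 9, with a summed intensity of 46757 to 55663. Of 11 macrophage and leukocyte markers, 8 were detected on every array, among them Emr1, Laptm5 and Cd14, while Ptprc, Fcer1g and Itgam were not detected on any. Their summed intensity was 10021 in parental MEFs, 5286 in Rb-deleted MEFs, 4809 with WT Rb-HA and 6077 with ΔCdk Rb-HA. Of 7 endothelial markers 1 was detected, Emcn, named after its values were seen, on 3 arrays. In such bulk cultures, fewer cells of a type and less RNA per cell cannot be told apart.

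**Figure D1:**
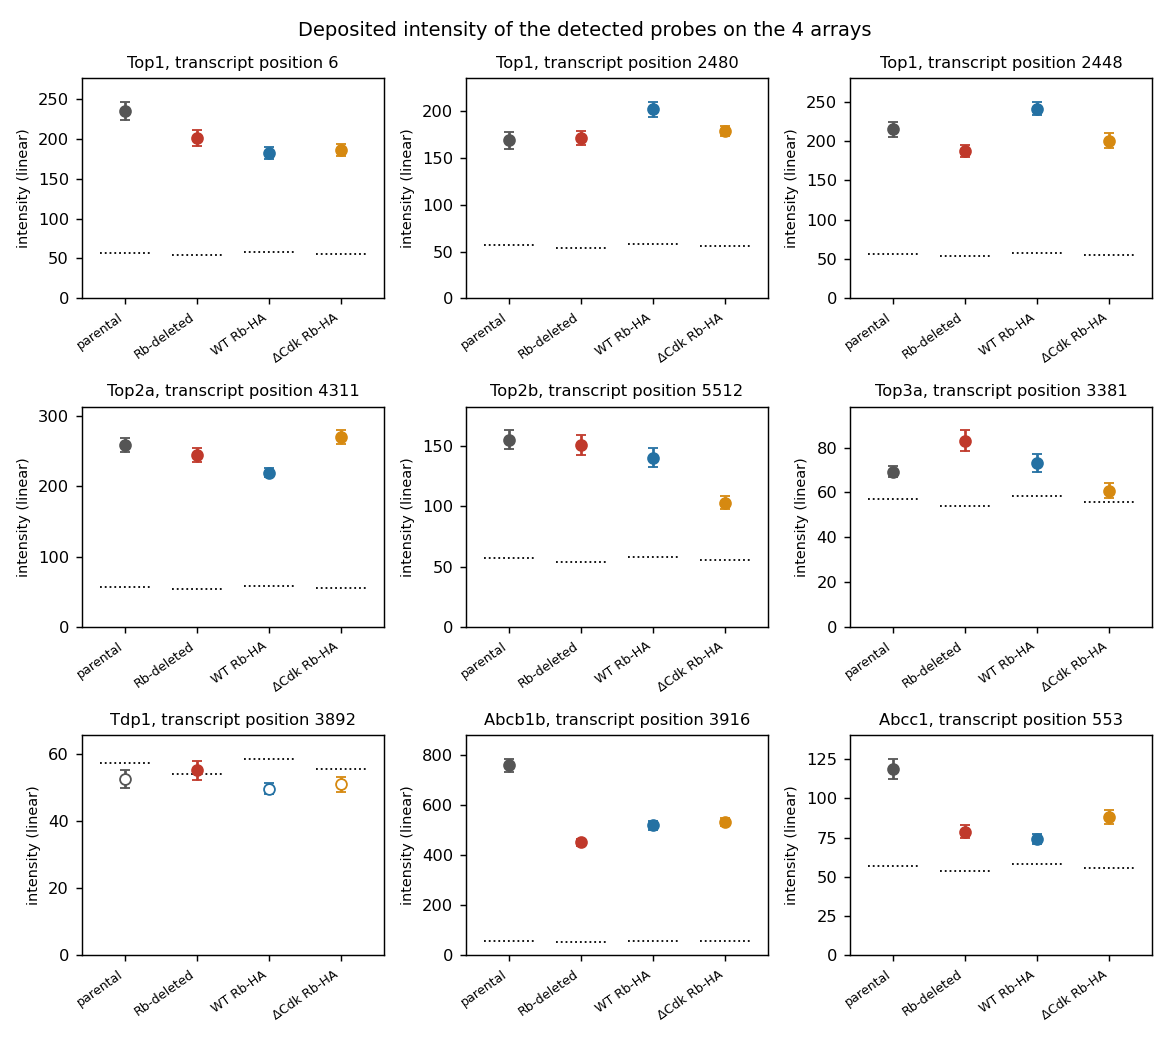
Deposited intensity (linear scale, y axis from 0) of the 9 detected member probes on the 4 arrays, 1 array per condition. Bars are bead standard errors, dotted lines mark the lowest intensity detected on each array and open points were not detected. Abcb1b is at 759 on the parental array and between 452 and 533 on the others, and Top2b is lowest, at 103, with ΔCdk Rb-HA.

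Both detected efflux transporters were lower in all 3 TAT-Cre-treated cultures than in parental MEFs. Abcb1b (chromosome 5) encodes P-glycoprotein, a pump for which doxorubicin is a classical substrate. Its probe had an intensity of 759 in parental MEFs (bead standard error 25.1), 452 in Rb-deleted MEFs (13.8), 519.7 with WT Rb-HA (17.7) and 533 with ΔCdk Rb-HA (17.5). The parental array stood above the other 3, and the Rb-deleted array was lowest. Its log2 ratio to the parental array was -0.73 for Rb-deleted MEFs (bead standard error 0.07), -0.50 with WT Rb-HA (0.07) and -0.43 with ΔCdk Rb-HA (0.07). Only the first passed 1.6-fold, as a 1.66-fold lower signal. Among the TAT-Cre-treated arrays, Abcb1b was higher than in Rb-deleted MEFs by 0.23 with WT Rb-HA (0.07) and by 0.30 with ΔCdk Rb-HA (0.07). The arrays with either form of Rb-HA differed by 0.07, within 2 bead standard errors.

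Abcc1 (chromosome 16) encodes MRP1, a pump that exports glutathione conjugates. Export of doxorubicin by either pump was not measured here. Its probe at position 553 had an intensity of 119 in parental MEFs (6.39), 78.8 in Rb-deleted MEFs (4.24), 74.1 with WT Rb-HA (3.37) and 88.3 with ΔCdk Rb-HA (4.47). Again the parental array was highest, and here WT Rb-HA MEFs were lowest. Its log2 ratio to the parental array was -0.74 for Rb-deleted MEFs (bead standard error 0.15), -0.94 with WT Rb-HA (0.14) and -0.54 with ΔCdk Rb-HA (0.14). The ratios for Rb-deleted and WT Rb-HA MEFs passed 1.6-fold, at 1.67-fold and 1.92-fold lower. Without background correction the Rb-deleted ratio was -0.56 and no longer passed, and with an offset of 50 neither did, at -0.51 and -0.63. Between the ΔCdk Rb-HA and the WT Rb-HA array the log2 difference was 0.40 (0.15), and the Rb-deleted array, which lay between them, differed from each by less than 2 bead standard errors. The probe of Abcc1 at position 12 of its own target sequence was at background on all 4 arrays, with intensities of 35.3 to 40.6, and so says nothing about the gene.

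As a background, 2.98% of the genes analysed were lower by more than 1.6-fold in Rb-deleted than in parental MEFs, and 2 of the 7 members were (Abcb1b and Abcc1). With WT Rb-HA 2.46% of genes and 1 member, Abcc1, were lower by this measure. With ΔCdk Rb-HA 3.3% of genes and 1 member, Top2b, were lower. None of the members was higher than parental by more than 1.6-fold, compared to 2.14%, 0.888% and 2.58% of genes on the same 3 arrays. These 3 ratios share the parental array and so are not independent of each other.

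Macrophage and leukocyte markers were lower on the same arrays as the transporters. As a share of the parental intensity, the 11 summed markers were at 52.7% in Rb-deleted, 48.0% in WT Rb-HA and 60.6% with ΔCdk Rb-HA. Abcb1b was at 59.6%, 68.4% and 70.2%, and Abcc1 at 66.4%, 62.4% and 74.4%. These shares include background, at a median intensity of 35.9 to 36.9 on the arrays. It is a larger part of the signal for Abcc1 than for Abcb1b, so the shares of Abcc1 are drawn more toward 100%. All 8 detected markers were below parental on each array, with median log2 ratios of -0.90, -1.11 and -0.96. The part of these cells in the transporter differences was not tested. Summed fibroblast markers were at 94.8%, 104% and 87.3% of parental, but single markers differed. Of these 9 genes, 6 were below parental in Rb-deleted, 4 in WT Rb-HA and 7 in ΔCdk Rb-HA MEFs. Their median log2 ratios were -0.15, 0.05 and -0.45. Col3a1, the marker farthest from parental, was at -0.73, -0.60 and -0.98.

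**Figure D2:**
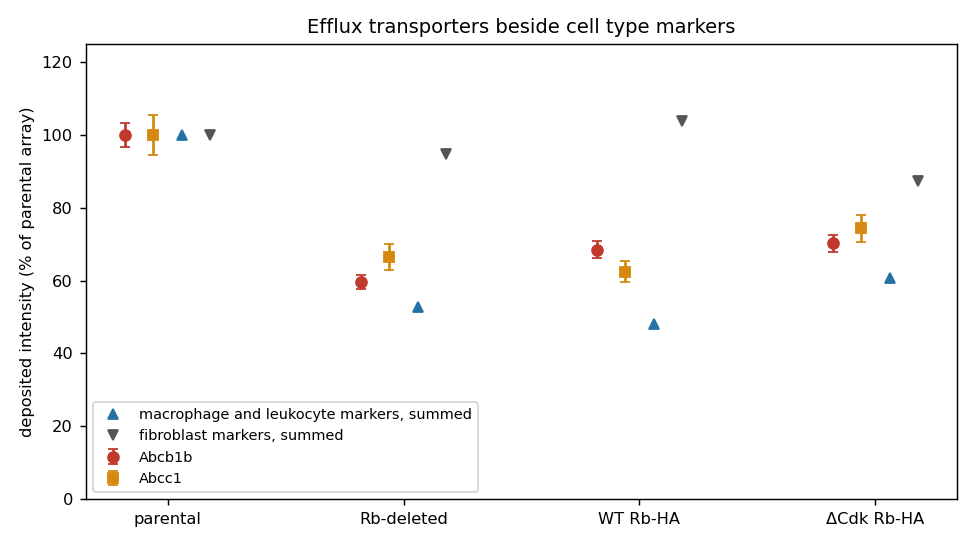
Deposited intensity, background included, as a percentage of the parental array (y axis from 0) for Abcb1b, Abcc1 at position 553 and the summed macrophage and leukocyte or fibroblast markers. Bars on the transporters are bead standard errors. Both transporters and the leukocyte sum lie between 48.0% and 74.4% on the 3 TAT-Cre-treated arrays. The fibroblast sum lies between 87.3% and 104%, which does not hold for each of its genes.

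The other transporters were not measurable. Abcb1a (chromosome 5), the other rodent gene for P-glycoprotein, had intensities of 41.6, 36.9, 44.2 and 36.9 on the parental, Rb-deleted, then WT Rb-HA, then ΔCdk Rb-HA arrays, all at background. Abcg2 (chromosome 6), the breast cancer resistance protein, had intensities of 34.3, 38.2, 39.2 and 37.5 on the same arrays, also at background. No change in either gene could be detected with these probes, and a low level of either is not shown to be absent.

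From a list of other ABC transporters and genes of drug uptake, 11 of 16 on the array were analysed. None of the 11 passed 1.6-fold in any of the 6 pairs of arrays, and their median log2 ratio relative to parental MEFs was -0.17 for Rb-deleted, -0.05 in WT Rb-HA and -0.15 with ΔCdk Rb-HA, compared to medians within 0.02 of 0 over all genes. Of these genes, 8, 6 and 8 were below parental. Abcc4, an MRP family pump named after its values were seen, had intensities of 329.6, 229.7, 219 and 326 on the parental, Rb-deleted, then WT Rb-HA, then ΔCdk Rb-HA arrays. Abcc4 thus resembled Abcc1 on the first 3 arrays, but its ratio to parental with ΔCdk Rb-HA was 0.08 on the log2 scale.

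Of the drug's targets, Top2a had nearly the same intensity in Rb-deleted as in parental MEFs and was lower with WT Rb-HA. Top2a (chromosome 11) encodes topoisomerase IIα, the isoform of dividing cells. Its probe at 4311 had an intensity of 259 in parental MEFs (bead standard error 10.2), 245 in Rb-deleted MEFs (9.80), 219.6 with WT Rb-HA (6.86) and 270.0 with ΔCdk Rb-HA (9.52). The ΔCdk Rb-HA array was highest and the WT Rb-HA array lowest, while parental and Rb-deleted arrays overlapped within their bead standard errors. The log2 ratio to the parental array was -0.04 for Rb-deleted MEFs (0.09), -0.21 with WT Rb-HA (0.08) and 0.14 with ΔCdk Rb-HA (0.08). Of all genes analysed, 20.6% were as low or lower than Top2a in WT Rb-HA over parental MEFs, and 21.3% in WT Rb-HA over Rb-deleted MEFs. Between the ΔCdk Rb-HA and the WT Rb-HA array the log2 difference was 0.35 (0.08), and 6.88% of genes were as high or higher. With other background correction, scaling and choice of probes this difference lay between 0.31 and 0.35. Its other probes, at 2497 and 2859 of other target sequences, had intensities of 38.6 to 49.8 and were at background on every array.

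Genes of the cell cycle give the frame for this. From a list of G1/S replication genes, 18 of 20 were analysed, and in Rb-deleted MEFs 15 passed 1.6-fold upward, with a median log2 ratio to parental of 1.20. Mcm3 and Mcm6, subunits of the replicative helicase, were at 2.32 and 2.25, and Chaf1b, a chromatin assembly factor, at 2.01. From a list of G2/M genes, 15 of 20 were analysed, and their median in Rb-deleted MEFs was 0.14, with none past 1.6-fold. Top2a, at -0.04, lay within the range of the G2/M genes and below all 18 G1/S genes, the lowest of which was at 0.30. With WT Rb-HA the medians were 0.60 for the G1/S list, with 8 genes past 1.6-fold, and -0.11 for the G2/M list, with none. With ΔCdk Rb-HA they were 1.08, with 14 genes past 1.6-fold, and 0.23, with 2 genes past it, Birc5 at 0.91 and Cdc2a, the gene of Cdk1, at 0.76.

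Compared directly, ΔCdk Rb-HA over WT Rb-HA, all 18 G1/S genes and all 15 G2/M genes were above 0, with medians of 0.36 and 0.36, beside 0.35 for Top2a. Over all genes the median of this comparison was -0.01 and 51.3% of genes were below 0. In WT Rb-HA over Rb-deleted MEFs, the G2/M median was -0.30, with 13 of 15 genes below 0, and Top2a was at -0.17 (0.08). The G1/S median of this pair was -0.79, with all 18 genes below 0 and 12 past 1.6-fold. Top2a lay above all of these, the highest of which was at -0.26. In ΔCdk Rb-HA over Rb-deleted MEFs, the G1/S median was -0.35, with 13 of 18 genes below 0 and 5 above. For the G2/M list the median of that pair was 0.09, with 9 of 15 genes above 0, and Top2a was at 0.18 (0.09).

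**Figure D3:**
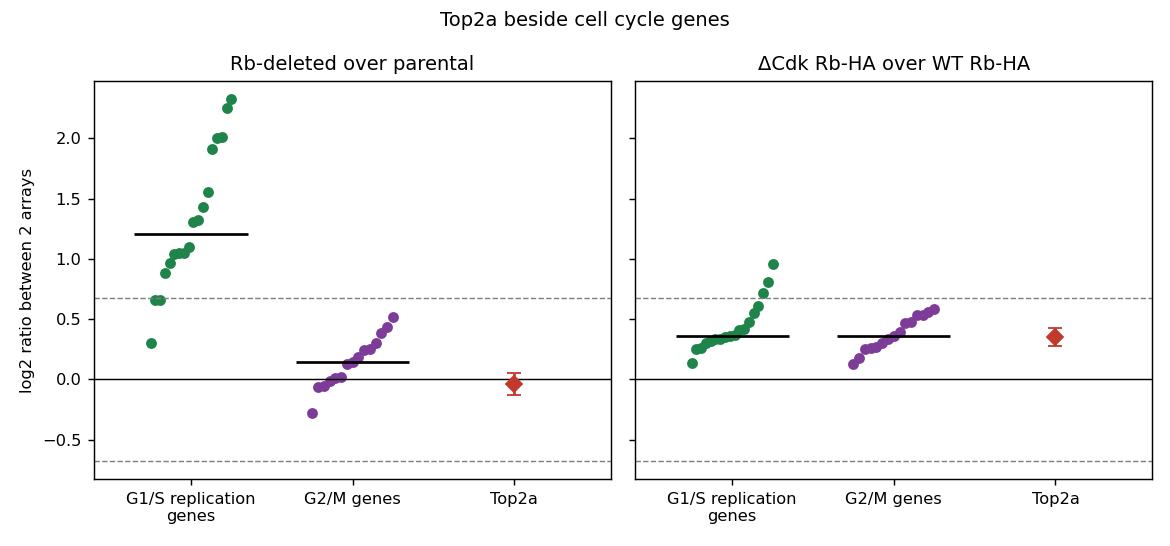
Log2 ratio between 2 arrays (y axis) for the 18 G1/S replication genes, the 15 G2/M genes and Top2a, with 1 point per gene, horizontal bars at list medians, the bead standard error on Top2a and dashed lines at 1.6-fold. In Rb-deleted over parental MEFs the G1/S median is 1.20 and Top2a is at -0.04, and in ΔCdk Rb-HA over WT Rb-HA MEFs the medians of both lists and Top2a lie between 0.35 and 0.36.

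In the promoter of Top2a, letters that E2F, CCAAT-binding NF-Y and cell cycle repressor complexes are known to read were looked for, because the gene is cell cycle regulated. RefSeq promoters on GRCm38.p6, from 250 bases before to 50 after the transcript start, matched 7 of the 9 members. Searched on both strands were an E2F core (TTCCCGC or TTCGCGC or TTGCCGC or TTGGCGC), the box CCAAT, and the CHR element TTTGAA. They occur in 9.57%, 37.4% and 17.9% of all 32851 promoters of the table. The promoter of Top2a, at chr11:99024140-99024439 on the minus strand, held 6 CCAAT matches, 2 CHR matches and no match to the E2F core, shown in capitals.
Top2a promoter: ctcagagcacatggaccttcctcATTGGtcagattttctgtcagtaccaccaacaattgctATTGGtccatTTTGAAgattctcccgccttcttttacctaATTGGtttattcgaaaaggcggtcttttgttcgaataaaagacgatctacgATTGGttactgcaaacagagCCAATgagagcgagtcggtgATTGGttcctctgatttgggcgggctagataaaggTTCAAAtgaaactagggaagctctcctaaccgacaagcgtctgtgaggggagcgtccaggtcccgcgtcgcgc

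For Abcb1b, which was lower on all 3 TAT-Cre-treated arrays, the promoter at chr5:8797897-8798196 on the plus strand held 2 CCAAT matches and 1 match to the E2F core, which begins 7 bases into the transcript. These matches are descriptions of letters and not of binding.
Abcb1b promoter: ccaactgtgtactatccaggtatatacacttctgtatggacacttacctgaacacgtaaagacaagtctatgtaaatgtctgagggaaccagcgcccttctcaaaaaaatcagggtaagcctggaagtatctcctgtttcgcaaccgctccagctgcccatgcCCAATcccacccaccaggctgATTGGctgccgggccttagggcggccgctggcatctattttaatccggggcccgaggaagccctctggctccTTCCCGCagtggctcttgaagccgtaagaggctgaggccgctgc

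None of the other member promoters in the table held the E2F core. Top2b had 2 CCAAT matches, Tdp1 had 1 CHR match, Abcb1a had 2 CHR matches, and Top1 had none of the 3 motifs. Abcg2 has 3 promoters in the table, with CHR matches in 2 of them and a CCAAT match in 1.

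Top2b (chromosome 14) encodes topoisomerase IIβ, which doxorubicin also traps and which resting cells express. Its probe had an intensity of 155 in parental MEFs (bead standard error 7.74), 151 in Rb-deleted MEFs (8.47), 140.4 with WT Rb-HA (7.93) and 103 with ΔCdk Rb-HA (5.34). The ΔCdk Rb-HA array stood below the other 3, which did not differ from their neighbours by 2 bead standard errors. With ΔCdk Rb-HA the log2 difference was -0.68 from parental (0.13), -0.67 from Rb-deleted (0.13) and -0.52 from WT Rb-HA MEFs (0.14). The ratio to parental lay just past the filter, and the 1.59-fold lower signal compared to Rb-deleted MEFs lay just short of it. The ratio to parental was -0.55 without background correction, -0.51 with an offset of 50 and -0.66 with arrays scaled to 1 median, so it no longer passed under these. Top2a and Top2b thus differed in opposite directions between the ΔCdk Rb-HA and the WT Rb-HA array, by 0.35 and -0.52. Of the 9 fibroblast markers 7 were below parental with ΔCdk Rb-HA, with a median log2 ratio of -0.45 and 1 past 1.6-fold, and the part of this in the Top2b difference was not tested.

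Top3a (chromosome 11) encodes topoisomerase IIIα, which works with the Blm helicase to dissolve linked recombination intermediates. Its probe had an intensity of 69.3 in parental MEFs (2.45), 83.0 in Rb-deleted MEFs (4.59), 73.1 with WT Rb-HA (3.91) and 60.8 with ΔCdk Rb-HA (3.49). Rb-deleted MEFs were highest and ΔCdk Rb-HA MEFs lowest, where detection began at an intensity of 53.8 and 55.5 on these arrays. The log2 ratio to the parental array was 0.42 for Rb-deleted MEFs (0.13), 0.09 with WT Rb-HA (0.14) and -0.29 with ΔCdk Rb-HA (0.16). From Rb-deleted to ΔCdk Rb-HA MEFs it fell by 0.71 on the log2 scale (0.18), past 1.6-fold, as did 1.95% of genes. This was -0.47 without background correction, -0.41 with an offset of 50 and -0.65 with arrays scaled to 1 median, all short of the filter. Top3b, its paralog, named after its values were seen, had intensities of 148, 185, 146 and 123 in the same order of arrays, and its log2 difference between ΔCdk Rb-HA and Rb-deleted MEFs, -0.68, lay just short of the filter before rounding.

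**Figure D4:**
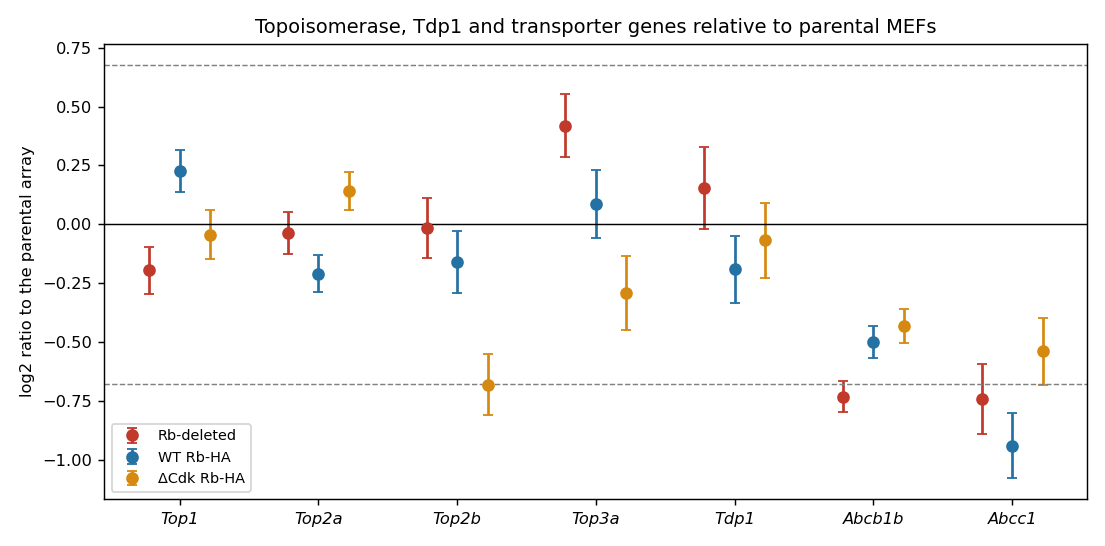
Log2 ratio to the parental array (y axis) of the 7 analysed genes in Rb-deleted, then WT Rb-HA, then ΔCdk Rb-HA MEFs, 1 array each, with bead standard errors and dashed lines at 1.6-fold (Tdp1 was detected on the Rb-deleted array only). Abcb1b and Abcc1 lie below 0 on all 3 arrays, from -0.43 to -0.94, Top2b passes the filter with ΔCdk Rb-HA alone at -0.68, and Top2a stays between -0.21 and 0.14.

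Top1 (chromosome 2) encodes the enzyme that relaxes supercoils ahead of polymerases and is the target of camptothecin rather than of doxorubicin. All 3 of its probes were detected on every array, but they disagreed in direction. At position 2448 the intensity was 215 in parental MEFs (bead standard error 9.52), 187 in Rb-deleted MEFs (7.45), 241 with WT Rb-HA (8.33) and 200.3 with ΔCdk Rb-HA (9.49). At position 2480, which shares 18 bases with it, the intensity was 168, 171, 202 and 179 in the same order. Both of these probes were highest with WT Rb-HA, by 0.42 (0.09) and 0.27 (0.10) on the log2 scale over Rb-deleted MEFs. At position 6 of another target sequence the intensity was 234, 201, 182 and 186, and here WT Rb-HA MEFs were lowest. For that probe the log2 difference between WT Rb-HA and Rb-deleted MEFs was -0.17 (0.10), and the ratio to parental with WT Rb-HA was -0.38 (0.10), compared to 0.23 (0.09) at 2448. No Top1 probe passed 1.6-fold in any pair of arrays, and no direction can be given for the gene.

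Tdp1 (chromosome 12) encodes the phosphodiesterase that frees DNA ends from a trapped topoisomerase I. Its probe had intensities of 52.4, 55.0, 49.5 and 50.9 in parental, Rb-deleted, then WT Rb-HA, then ΔCdk Rb-HA MEFs, with detection p-values of 0.029, 0.0064, 0.079 and 0.041. Thus it was detected in Rb-deleted MEFs only, and there by a small margin. It was analysed only through that array, and is counted among the 7 members analysed. Ratios of Tdp1 that are plotted, or recomputed under other settings, involve arrays on which it was not detected. No difference is read from them.

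A list of topoisomerase partners and adduct repair genes had 12 of 16 genes analysed. In Rb-deleted MEFs their median log2 ratio over parental MEFs was 0.25, with 9 genes above 0, and 2 passed 1.6-fold upward. These were Parp1, a sensor of DNA breaks, at 1.01 (bead standard error 0.06) and Blm, the helicase partner of Top3a, at 0.79 (0.13). With WT Rb-HA the median was 0.09 and none passed. With ΔCdk Rb-HA it was -0.03, and only Blm passed, at 0.73 (0.12). Parp1 was lower than in Rb-deleted MEFs by more than 1.6-fold with both WT Rb-HA, at -0.69 (0.06), and ΔCdk Rb-HA, at -0.75 (0.07), and Xrcc1, a scaffold of single-strand break repair named after its values were seen, only with ΔCdk Rb-HA, at -0.75 (0.08).

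A list of doxorubicin-reducing and redox defence genes had 16 of 16 genes analysed. Their median log2 ratio relative to parental MEFs was -0.03 for Rb-deleted, -0.08 in WT Rb-HA and 0.19 with ΔCdk Rb-HA. Nqo1, a quinone reductase, was at 1.14 with ΔCdk Rb-HA (0.09), and Txnrd1, thioredoxin reductase, was at -0.87 in Rb-deleted MEFs (0.08) and -1.11 with WT Rb-HA (0.08). No other gene of the list passed 1.6-fold compared to parental. Cbr1 and Cbr3, carbonyl reductases that convert doxorubicin to its alcohol, were named after their values were seen. Their log2 ratios to parental were 0.46 and 0.45 with ΔCdk Rb-HA, 0.44 and -0.12 with WT Rb-HA, and 0.11 and 0.22 in Rb-deleted MEFs.

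The 3 TAT-Cre-treated arrays were also compared without the parental array. No member passed 1.6-fold between WT Rb-HA and Rb-deleted MEFs, compared to 0.539% of genes higher and 0.484% lower. None passed between the ΔCdk Rb-HA and the WT Rb-HA array, compared to 0.84% and 1.01% of genes. Between ΔCdk Rb-HA and Rb-deleted MEFs only Top3a passed, downward, and no member upward, where 2.31% of genes passed.

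**Figure D5:**
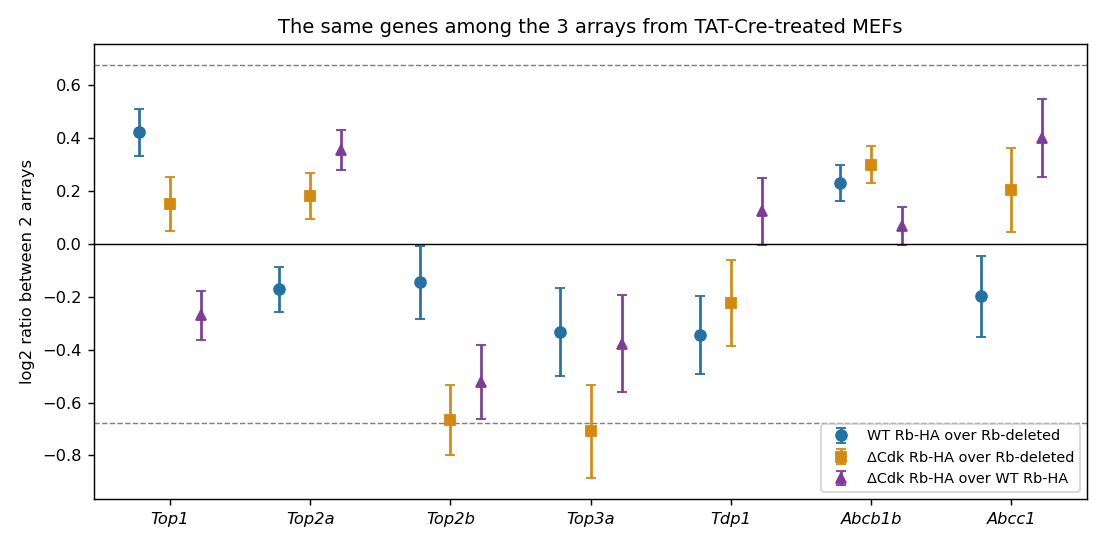
Log2 ratio between 2 of the 3 arrays from TAT-Cre-treated MEFs (y axis) for the 7 analysed genes, with bead standard errors and dashed lines at 1.6-fold (Tdp1 was detected on the Rb-deleted array only). Top2b and Top3a are the lowest with ΔCdk Rb-HA, at -0.67 and -0.71 relative to Rb-deleted MEFs. Top2a, Abcb1b and Abcc1 are above 0 in both comparisons of ΔCdk Rb-HA.

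Of the members detected on every array, Abcc1 had the widest range over the 4 arrays, 0.94 on the log2 scale. The 5 genes with the most similar values, by Euclidean distance over the 4 centred log2 values among genes detected on all 4 arrays, were Spata13, Adamtsl3, Gpr126, Dio2 and Txnrd1, at distances of 0.08 to 0.13. Txnrd1, the only one of them on a list above, had log2 ratios over parental MEFs of -0.87 for Rb-deleted MEFs, -1.11 with WT Rb-HA and -0.65 with ΔCdk Rb-HA. Likeness over 4 arrays is a description of these values only.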

How the data were processed

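Gene expression in MEFs was measured on 4 MouseWG-6 v2.0 BeadChip arrays, all on 1 chip, so array position and condition cannot be told apart. The authors deposited a bead-averaged intensity for each of 45281 probes, on a linear scale and without normalization between arrays, with its bead standard error and number of beads. A detection p-value per probe and array, in steps of 1 in 936, was deposited with it. Software of the authors' array processing was not given in the sources used here. Groups came from the labels.

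From the intensities, background was corrected with the normexp method of limma (version 3.58.1, R 4.3.3), with background inferred from detection p-values and an offset of 16, and values were then quantile normalized over the 4 arrays and log2 transformed. Genes needed a detection p-value under 0.01 for some probe on 1 array or more (17746 probes, 12616 genes), and the probe of highest mean log2 value stood for its gene. Symbols turned into dates were restored for 34 of 44 probes from Entrez numbers with RefSeq (GRCm38.p6). Bead standard errors were carried through each array's mapping and combined over both arrays of a ratio. Positions on transcripts and probe sequences are those of the table, and genome positions of probes are not given, since the build of the table is not stated. Python 3.11.15, numpy 2.4.6 and pandas 2.3.3 were used for the rest, and the calculation was tested on simulated data.

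With 1 array per condition no p-value was computed, and the number of arrays limits the precision. Lists of genes are described by counts and medians. The set of genes, the lists and the alternatives were chosen with earlier results of these data known, although the rule that finds the genes uses their symbols only. Named were all members, Rb1, up to 3 genes per list with the largest ratio to parental past 1.6-fold, and the 5 genes most like the widest-ranging member, with exceptions stated. Other settings tried were of background correction and offset, the scaling, the filter, the probes per gene and the fold threshold, and 1 more, normalizing the 3 TAT-Cre arrays on their own, was added after seeing the data.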

Additional observations from a re-analysis of the deposited data

How the results depend on the processing

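No paired analysis was possible because each condition has 1 array. Of the recomputed log2 ratios of members, 213 moved by less than their bead standard error and 18 by more, and 1 changed sign, Tdp1 with ΔCdk Rb-HA over parental, detected on neither array, from -0.07 to 0.02 with arrays scaled to 1 median. An offset of 50 moved 9 of 42 ratios, the most of the settings tried. Compared to parental, the number of members lower by more than 1.6-fold in Rb-deleted MEFs (2) was 1 with an offset of 50 or no background correction. In WT Rb-HA MEFs (1) it was 0 with an offset of 50. In ΔCdk Rb-HA MEFs (1) it was 0 with an offset of 50, no background correction or arrays scaled to 1 median. Between ΔCdk Rb-HA and Rb-deleted MEFs (1) it was 0 under the same 3 settings, and 2 without normalization between arrays or at 1.5-fold. At 2-fold all 4 counts were 0.

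Normalizing the 3 TAT-Cre arrays on their own changed no count of members. The median of the G1/S list was 0.97 in Rb-deleted, 0.45 in WT Rb-HA and 0.91 in ΔCdk Rb-HA MEFs with an offset of 50, and -0.68 in WT Rb-HA over Rb-deleted MEFs. Without background correction these were 1.02, 0.48, 0.94 and -0.71. In Rb-deleted MEFs it was 1.10 with detection below 0.05, and in ΔCdk Rb-HA MEFs 0.95 with the mean of detected probes. Without normalization between arrays the partner and repair list was at -0.12 in ΔCdk Rb-HA MEFs and the redox list at -0.16 in WT Rb-HA MEFs. Over all genes, an offset of 50 took the number higher than parental by more than 1.6-fold from 270 to 124 in Rb-deleted MEFs, from 112 to 46 with WT Rb-HA and from 325 to 151 with ΔCdk Rb-HA. The number lower went from 376 to 215, from 310 to 174 and from 416 to 234 on these arrays. Without background correction the numbers higher were 143, 55 and 172, and the numbers lower 243, 195 and 263. Signal over background limits what can be said of Tdp1. The ratios of Abcc1, Top2b and Top3a also depend on how background is handled, and none of them passed 1.6-fold with an offset of 50.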
